A study of Mus musculus with 7 samples.

Results

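REV-ERBα regions near promoters were the merged ChIP-seq peaks of REV-ERBα whose midpoint lay more than 1000 bp and at most 10000 bp from the closest annotated start site (TSS) of a protein-coding transcript. Peaks of the 2 REV-ERBα replicates that overlapped by at least 1 bp were merged, and only regions with a peak in both replicates were kept. Of the 1263 regions obtained in this way, 272 (21.5%) fell in this distance class, 327 (25.9%) lay within 1000 bp of a TSS and 664 (52.6%) lay farther than 10000 bp away. Chromatin came from gastrocnemius muscles of wild-type male C57BL/6J mice of 5 months, kept on standard chow in alternating light and darkness, and no other genotype or treatment was compared. Each factor was mapped in 2 biological replicates: REV-ERBα with a mix of 2 antibodies at Zeitgeber time (ZT) 8, and BMAL1 and RNA polymerase II (RNAP2) with 1 antibody each at ZT 4. REV-ERBα was therefore read at another time of day than BMAL1 and RNAP2, and time and factor cannot be told apart. The whole muscle was used, so nuclei of fibers, vessels, nerves and connective tissue all contributed DNA.

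REV-ERBα (*Nr1d1*) is a nuclear receptor that binds heme and represses transcription together with corepressors that remove acetyl groups from histones. It binds DNA as a monomer at an AGGTCA core preceded by an A/T-rich stretch (the RORE) or as a pair at a direct repeat (DR2), and it can also be held on chromatin by other transcription factors. BMAL1, with its partner CLOCK, activates genes through the E-box CACGTG, among them the clock genes *Per1*, *Nr1d1* and *Dbp*, and RNAP2 marks genes that are being transcribed.

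The 6 peak lists held between 28881 and 177669 peaks, called by Macs2 on each sample at a lenient p-value cutoff of 0.05. The 2 REV-ERBα lists were of like length, with 28881 and 29934 peaks, whereas the BMAL1 lists held 34737 and 177669 and the RNAP2 lists 87870 and 168821. Macs2 gives each peak a −log10 p (the larger, the less likely from the input background) and a fold enrichment over input at its summit. The strength of a region was taken as the lower of the −log10 p values of its 2 replicates. The read number at a single region is unknown from these lists, no test over animals could be made, and shares carry 95% Wilson intervals over regions that cover counting error only.

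Shown are windows of 201 bp centered on the summit of the stronger REV-ERBα peak (mm10, plus strand, RefSeq assembly), with the searched motifs in capitals. The first 6 belong to the regions ranked 1 to 3 and 5 to 7 by strength. Capitals mark the M-CAT motif CATTCC in the *Mical3* window, the GC box GGGCGG in those of *Was* and *Wdr45*, CAGCTG, M-CAT and the FOX motif TGTTTAC in that of *Pnmt*, and the AP-1 motif TGANTCA in that of *Ckm*. Either strand counted, and the *Acta1* window held no searched motif.

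Mical3 (chr6:121110239-121110439): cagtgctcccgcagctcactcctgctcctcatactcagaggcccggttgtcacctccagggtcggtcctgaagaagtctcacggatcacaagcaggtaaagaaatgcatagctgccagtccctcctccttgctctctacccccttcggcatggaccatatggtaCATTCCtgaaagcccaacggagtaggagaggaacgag
Was (chrX:8096630-8096830): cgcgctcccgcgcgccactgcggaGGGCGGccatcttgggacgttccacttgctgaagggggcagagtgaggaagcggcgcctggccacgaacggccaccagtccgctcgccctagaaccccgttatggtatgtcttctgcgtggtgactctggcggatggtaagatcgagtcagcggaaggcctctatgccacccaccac
Wdr45 (chrX:7714272-7714472): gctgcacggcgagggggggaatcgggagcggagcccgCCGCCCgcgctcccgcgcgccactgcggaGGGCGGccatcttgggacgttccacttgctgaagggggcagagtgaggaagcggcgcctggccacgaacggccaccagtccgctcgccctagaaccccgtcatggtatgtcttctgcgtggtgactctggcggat
Pnmt and Tcap (chr11:98385066-98385266): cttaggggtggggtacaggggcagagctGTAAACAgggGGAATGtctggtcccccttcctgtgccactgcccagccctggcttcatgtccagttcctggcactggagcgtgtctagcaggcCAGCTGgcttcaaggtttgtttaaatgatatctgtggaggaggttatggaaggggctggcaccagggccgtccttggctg
Ckm (chr7:19423331-19423531): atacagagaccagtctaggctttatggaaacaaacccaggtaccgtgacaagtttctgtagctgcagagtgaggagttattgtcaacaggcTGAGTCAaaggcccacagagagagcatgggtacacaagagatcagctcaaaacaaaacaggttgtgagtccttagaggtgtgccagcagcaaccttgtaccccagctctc
Acta1 (chr8:123891065-123891265): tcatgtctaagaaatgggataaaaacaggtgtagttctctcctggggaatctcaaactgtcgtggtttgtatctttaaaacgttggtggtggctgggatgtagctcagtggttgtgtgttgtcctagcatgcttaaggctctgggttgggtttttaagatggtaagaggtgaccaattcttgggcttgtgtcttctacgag

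The windows of *Was* and *Wdr45*, which lie apart on the X chromosome, were aligned over 159 bp and were identical at 158 of these positions (99.4%). The reads of this duplicated sequence may not all be assigned to the right copy, although the authors removed reads with several alignments, and both regions are uncertain for that reason. The other 6 windows were chosen because they hold the E-box CACGTG, the element that BMAL1 and CLOCK bind. Of the 7 such regions among the 272, those of *Slc6a9*, *Tpm1*, *Nr1d1*, *Klhl21*, *Adssl1* and *Mef2d* were the strongest, and the capitals mark CACGTG together with any CAGCTG, GC box, AP-1 or D-box (TTATGTAA) letters.

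Slc6a9 (chr4:117836360-117836560): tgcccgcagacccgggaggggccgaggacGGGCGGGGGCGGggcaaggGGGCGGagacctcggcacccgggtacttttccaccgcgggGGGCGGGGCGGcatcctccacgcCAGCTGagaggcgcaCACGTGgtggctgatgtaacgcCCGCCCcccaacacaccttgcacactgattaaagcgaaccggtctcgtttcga
Tpm1 (chr9:67037287-67037487): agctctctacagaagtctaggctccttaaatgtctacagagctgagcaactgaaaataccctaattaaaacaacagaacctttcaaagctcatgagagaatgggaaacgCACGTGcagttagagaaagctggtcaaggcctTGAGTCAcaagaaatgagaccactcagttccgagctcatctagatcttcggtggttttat
Nr1d1 (chr11:98773982-98774182): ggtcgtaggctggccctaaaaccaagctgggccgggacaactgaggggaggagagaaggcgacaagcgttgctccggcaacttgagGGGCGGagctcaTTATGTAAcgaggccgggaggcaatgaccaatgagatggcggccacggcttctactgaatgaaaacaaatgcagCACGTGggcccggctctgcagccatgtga
Klhl21 (chr4:152009648-152009848): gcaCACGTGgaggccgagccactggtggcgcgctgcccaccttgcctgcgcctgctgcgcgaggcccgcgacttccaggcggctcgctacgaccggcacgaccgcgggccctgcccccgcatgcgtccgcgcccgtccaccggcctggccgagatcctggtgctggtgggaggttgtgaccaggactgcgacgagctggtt
Adssl1 (chr12:112630045-112630245): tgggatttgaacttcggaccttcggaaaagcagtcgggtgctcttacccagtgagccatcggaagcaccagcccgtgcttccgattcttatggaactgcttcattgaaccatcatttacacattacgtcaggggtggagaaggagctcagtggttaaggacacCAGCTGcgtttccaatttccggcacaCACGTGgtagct
Mef2d (chr3:88138680-88138880): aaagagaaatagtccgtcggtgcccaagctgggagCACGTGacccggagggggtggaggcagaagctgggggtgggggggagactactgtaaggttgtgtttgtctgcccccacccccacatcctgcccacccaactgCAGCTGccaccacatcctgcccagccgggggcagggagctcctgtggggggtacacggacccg

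The strongest of the 272 regions lay near *Mical3*, which encodes an actin-associated monooxygenase. This region of 516 bp at chr6:121110052-121110567, in an intron 5668 bp upstream of the closest coding TSS, reached REV-ERBα −log10 p values of 45.1 and 44.9 in the 2 replicates. The fold enrichment over input was 11.1 and 11.3, and the summits of the 2 replicates were 64 bp apart. No BMAL1 peak overlapped it, and RNAP2 had a peak of −log10 p 3.11 in replicate 1 alone. The next regions were the duplicated pair on the X chromosome, with REV-ERBα values of 26.7 and 37.5 near *Was* and of 28.8 and 23.2 near *Wdr45*, and neither overlapped a peak of BMAL1 or RNAP2. *Was* encodes a regulator of actin assembly in blood cells and *Wdr45* an autophagy protein.

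The regions ranked 5 to 7 were wider and overlapped peaks of all factors. At *Ckm*, the muscle creatine kinase, the merged region covered 14996 bp, with a REV-ERBα −log10 p of 20.5 and 27.5. BMAL1 reached 5.07 and 13.4 there, and RNAP2 84.5 and 31.6. At *Acta1*, skeletal muscle α-actin, a region of 5796 bp had REV-ERBα values of 19.6 and 21.2, BMAL1 values of 7.45 and 4.95 and RNAP2 values of 131 and 39.9. The region at *Pnmt* and *Tcap* covered 3573 bp and contained a TSS of both genes. Its midpoint was 1242 bp from the TSS of *Pnmt*, an enzyme of adrenaline synthesis, and 1397 bp from that of *Tcap*, the titin cap protein of the Z-disc. The region had REV-ERBα values of 21.2 and 22.7, BMAL1 values of 11.0 and 10.6 and RNAP2 values of 141 and 33.2. In these 3 regions every one of the 6 lists had a peak, and RNAP2 replicate 1 had the highest value.

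The 20 strongest regions, with a lower REV-ERBα −log10 p from 7.09 to 44.9, fell into these kinds by width. All 12 that were wider than 1000 bp overlapped an RNAP2 region present in both RNAP2 replicates, and 11 of the 12 also overlapped BMAL1 peaks shared by its replicates. Of the 8 that were at most 1000 bp wide, 0 overlapped either, and 3 had no BMAL1 or RNAP2 peak in any list. Width is partly a product of neighboring peaks being merged, and it was read after the strengths were known, so the split is a description.

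**Figure D1:**
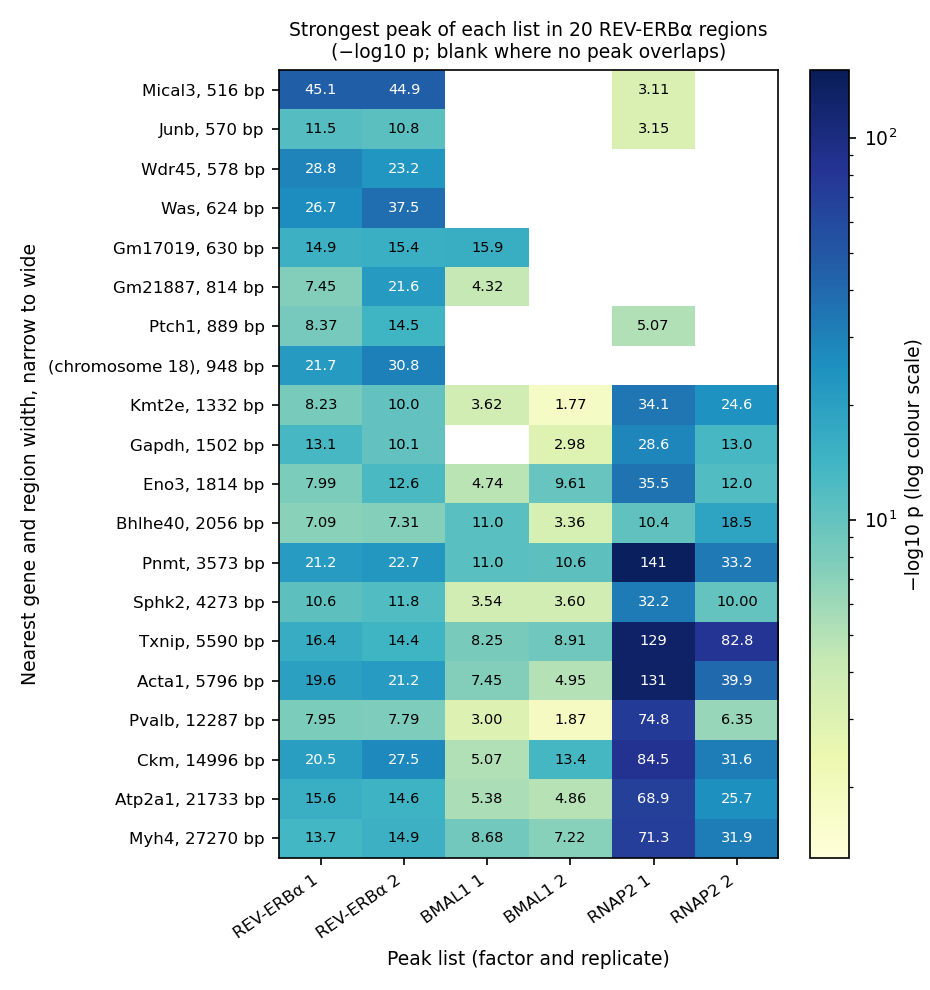
Values of the 20 strongest REV-ERBα regions in the 6 peak lists, from the narrowest region (top) to the widest (bottom). Numbers and color (log scale) give the −log10 p of the strongest peak of a list that overlaps the region, and blank cells mark lists without a peak there. The 8 regions of at most 1000 bp are blank in most BMAL1 and RNAP2 lists, while the 12 wider ones have a peak in every list except BMAL1 replicate 1 at *Gapdh*.

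The other wide regions among the 20 strongest lay near *Atp2a1*, *Myh4*, *Pvalb*, *Txnip*, *Gapdh*, *Eno3*, *Kmt2e*, *Sphk2* and *Bhlhe40*. *Atp2a1*, the calcium pump of the fast-fiber sarcoplasmic reticulum, had a region of 21733 bp with REV-ERBα values of 15.6 and 14.6 and RNAP2 values of 68.9 and 25.7. *Myh4*, the myosin heavy chain of the fastest fibers, had the widest region of all, 27270 bp, with REV-ERBα values of 13.7 and 14.9, BMAL1 values of 8.68 and 7.22 and RNAP2 values of 71.3 and 31.9. *Pvalb*, which encodes the calcium buffer parvalbumin, had one of 12287 bp with REV-ERBα values of 7.95 and 7.79. *Txnip*, an inhibitor of glucose uptake, had a region of 5590 bp with REV-ERBα values of 16.4 and 14.4 and with RNAP2 values of 129 and 82.8, the highest lower RNAP2 value of the 272. The glycolytic genes *Gapdh* (13.1 and 10.1) and *Eno3* (7.99 and 12.6) had REV-ERBα regions of 1502 and 1814 bp with RNAP2 values from 12.0 to 35.5.

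Of the 272 regions, 9 contained a coding TSS, although their midpoint was over 1000 bp from any. They were the regions of *Pnmt*, *Ckm*, *Acta1*, *Atp2a1*, *Txnip*, *Myh4*, *Tnnt3*, *Mylk4* and *Ppp4c*, each wider than 3000 bp, and they covered gene bodies as well as starts. Among the strong narrow regions, *Junb*, an immediate early transcription factor, had a region of 570 bp with its midpoint 1230 bp upstream of the TSS and with REV-ERBα values of 11.5 and 10.8. The region of *Ptch1*, the Hedgehog receptor, had 8.37 and 14.5, and that of *Trp53*, which encodes the tumor suppressor p53, had 7.31 and 6.35. These 3 regions had an RNAP2 peak in replicate 1 only and no BMAL1 peak.

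Across all 272 regions the peaks were weak. The lower −log10 p had a median of 2.54 and ranged from 1.33 to 44.9, with a median of 4.67 in the 327 promoter regions and of 2.15 in the 664 distal regions. The replicate medians were 3.02 and 3.18, and the median fold enrichment was 2.4 and 2.46. A q-value of 0.05 or less (−log10 q of at least 1.3) in both replicates was reached by 34 regions (12.5%, 9.08 to 17.0), where it was reached by 16.4% of all REV-ERBα regions, 44.3% of the promoter regions and 4.22% of the distal ones. Spearman's correlation of the −log10 p between replicates was 0.54 over the 272 regions, 0.86 over the promoter regions and 0.39 over the distal regions, where each value comes from the same pair of libraries and is a description. The summits of the replicates were within 100 bp of each other at 59 regions (21.7%), against 59.0% of the promoter regions and 23.9% of the distal regions.

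**Figure D2:**
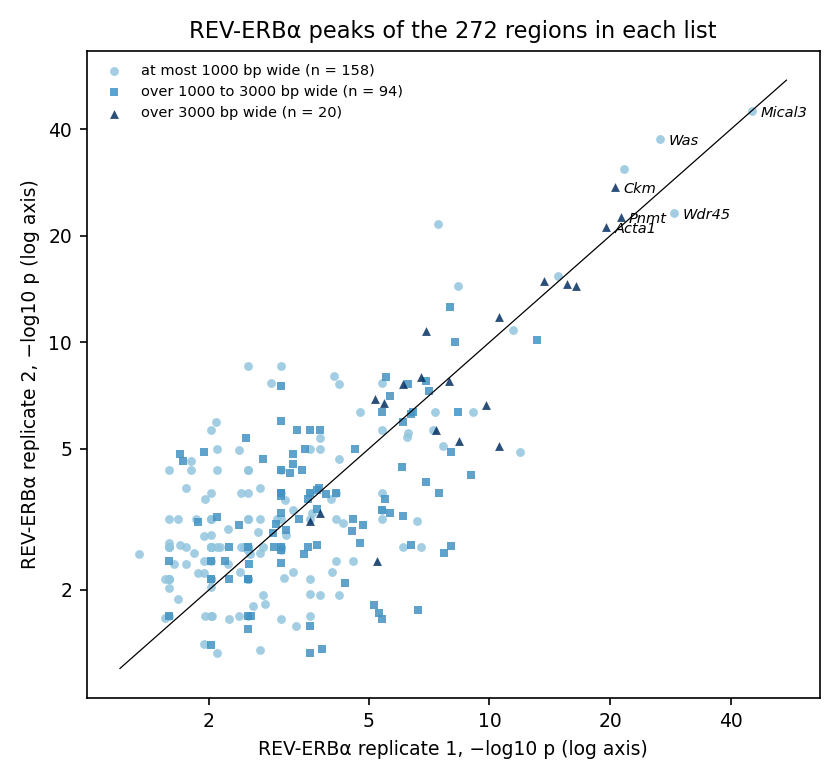
REV-ERBα −log10 p of each of the 272 regions in replicate 1 (x axis) and replicate 2 (y axis), both on log axes, with symbols by region width and a line where both are equal. The quartiles are 2.12 and 5.21 in replicate 1 and 2.41 and 4.91 in replicate 2, and regions over 3000 bp wide have a median lower value of 6.72.

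The median width was 888 bp (391 to 27270), compared with 777 bp for promoter regions and 787 bp for distal regions. Regions over 3000 bp wide numbered 20 (7.35%, 4.81 to 11.1), against 1.83% of promoter and 3.92% of distal regions. Stronger regions tended to be wider, with a Spearman correlation of 0.33 between width and lower −log10 p over the 272. The window around the summit had a median GC content of 50.5%, between 64.2% in promoter regions and 45.3% in distal regions. The ratio of observed to expected CpG was 0.195 in the median, 0.802 in promoter regions and 0.137 in distal regions, and the upper quartile of the 272 (0.344) was below the lower quartile of the promoter regions (0.614).

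Midpoints lay downstream of the closest TSS at 160 regions and upstream at 112 (41.2%, 35.5 to 47.1). The upstream share was 45.1% over all REV-ERBα regions, 54.7% in promoter regions and 41.9% in distal regions. Midpoints fell in an intron at 132 regions (48.5%) and between genes at 97 (35.7%). They fell in a coding exon at 24 (8.82%) and in an untranslated exon part at 19 (6.99%). In the same order, these shares were 37.5%, 47.2%, 5.38% and 9.90% over all REV-ERBα regions. They were 32.4%, 32.4%, 6.12% and 29.1% in promoter regions and 35.5%, 59.2%, 3.61% and 1.66% in distal regions. The median distance from the TSS was 4620 bp. The class was bounded by distance alone. Just inside the lower limit were the regions of *Slc6a9* (1006 bp, REV-ERBα values of 7.22 and 5.65) and *Trp53* (1015 bp), and just outside it that of *Kmt2d* (996 bp, 3.97 and 5.72). Just inside the upper limit was a region of *Ttn* (9930 bp, 3.79 and 3.29), and just outside it one of *Arhgap24* (10001 bp, 1.59 and 2.15).

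**Figure D3:**
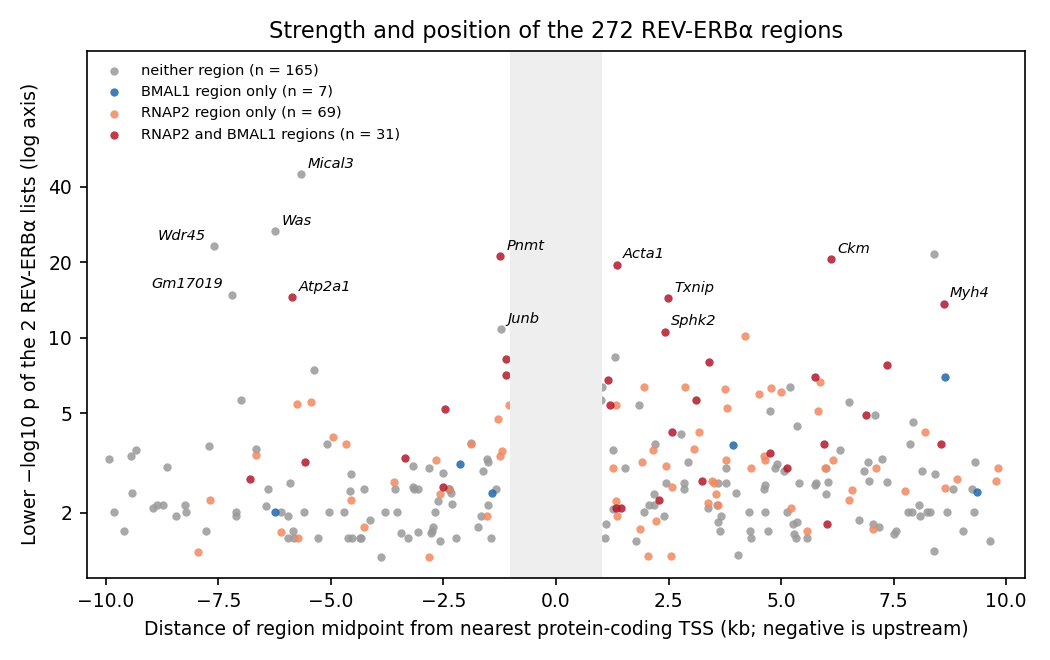
Signed distance of the 272 region midpoints from the nearest protein-coding TSS (x axis, kb, negative upstream) and the lower −log10 p of the 2 REV-ERBα lists (y axis, log scale), colored by overlap with RNAP2 and BMAL1 regions of both replicates. The gray band is the promoter class, which is not plotted, and regions with both RNAP2 and BMAL1 overlap (31) lie on both sides of it, 22 of them downstream of the TSS.

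An RNAP2 region present in both replicates overlapped 100 of the 272 regions (36.8%, 31.3 to 42.6), where 32.9% of all REV-ERBα regions had one. The share was 81.0% (76.4 to 84.9) among promoter regions and 7.53% (5.76 to 9.79) among distal ones. With REV-ERBα peaks of −log10 p of at least 3 the share in this distance class was 56.1%, and with every peak of replicate 2 or of replicate 1 alone, without the other REV-ERBα list, it was 4.44% or 3.90%. These settings were recomputed for this distance class alone, so the 32.9% of all regions is not their comparison. The RNAP2 lists gave 122 regions with a peak in replicate 1 and 125 in replicate 2, and 144 (52.9%) in at least 1 of them, beside 49.2% of all REV-ERBα regions. By distance, the share with RNAP2 in both replicates was 48.8% (34.6 to 63.2) from 1000 to 2000 bp, 40.2% (31.4 to 49.7) from 2000 to 5000 bp and 29.5% (22.1 to 38.1) from 5000 to 10000 bp, with intervals that overlap. It was 43.1% (35.7 to 50.9) downstream and 27.7% (20.2 to 36.6) upstream of the TSS. An RNAP2 region lay within 1000 bp of the closest TSS itself at 129 regions (47.4%), beside 44.4% of all REV-ERBα regions. A REV-ERBα promoter region at the same gene accompanied 57 of the 272 (21%), beside 11.7% of distal regions and 36.6% of all, which include the promoter regions themselves. These 57 include all 16 regions nearest to *Ttn*, a gene with 14 coding starts. Genes were matched by name, so the promoter region can lie at another start of the gene.

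Overlap with a BMAL1 region of both replicates was found at 38 of the 272 (14.0%, 10.4 to 18.6), beside 7.68% of all REV-ERBα regions, 6.12% (3.99 to 9.26) of promoter regions and 5.87% (4.33 to 7.93) of distal regions. Each BMAL1 list alone had a peak at 74 of them, and 107 (39.3%) had a peak in at least 1 list, where 28.3% of all REV-ERBα regions did. The share depended on the strength asked of a peak: it was 5.15% with BMAL1 peaks of −log10 p of at least 3, and 24.3% with REV-ERBα peaks of at least 3. The other REV-ERBα regions were not recomputed at these cutoffs, so the 7.68% of all regions is not their comparison. Of the 38, 31 also overlapped an RNAP2 region of both replicates. The other 7 were near *Gm21149*, *Mid1*, *Gm5773*, *Cd79b* and, at 3 regions, *Ttn*. No peak of BMAL1 or RNAP2 in any list was present at 98 of the 272 regions (36.0%), beside 38.3% of all REV-ERBα regions, 3.67% of promoter regions and 56.3% of distal regions.

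Both overlaps moved with the width of the region, and the part of width in them was not tested. Of the 158 regions of at most 1000 bp, 20.3% (14.7 to 27.2) overlapped an RNAP2 region and 5.06% (2.59 to 9.67) a BMAL1 region. For the 94 regions over 1000 and up to 3000 bp these shares were 55.3% (45.3 to 65.0) and 17.0% (10.8 to 25.9), and for the 20 wider ones 80.0% (58.4 to 91.9) and 70.0% (48.1 to 85.5). Within the narrowest width, the BMAL1 share was 3.49% (1.78 to 6.74) in promoter regions and 1.31% (0.603 to 2.83) in distal regions. Within the widest, it was 66.7% of 6 promoter regions and 61.5% (42.5 to 77.6) of 26 distal regions. Between these widths it was 8.70% (4.47 to 16.2) in promoter regions and 9.39% (5.95 to 14.5) in distal regions. The BMAL1 share of the 272 was above that of both other classes at each width, but its intervals overlapped those of the promoter and of the distal regions. The RNAP2 share lay between those of promoter and distal regions.

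**Figure D4:**
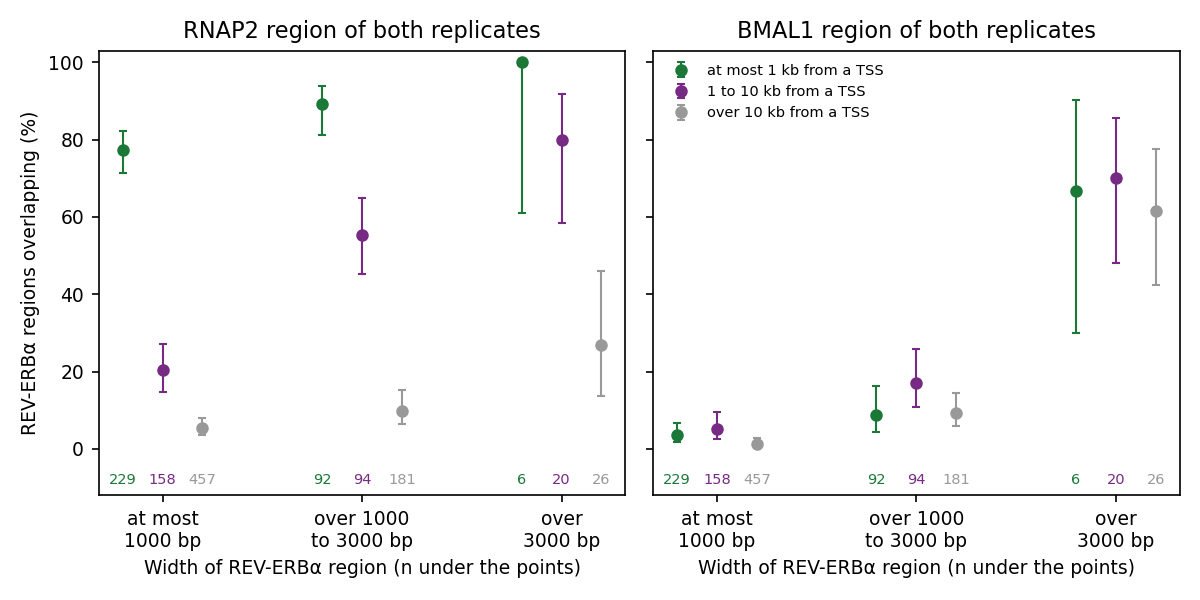
Percentage of REV-ERBα regions that overlap an RNAP2 region (left) or a BMAL1 region (right) present in both replicates, by width of the REV-ERBα region (x axis) and by distance from a TSS (color). Points are shares and bars 95% Wilson intervals, with the number of regions under each point. The RNAP2 share of regions 1 to 10 kb from a TSS rises from 20.3% to 80.0% with width, and the BMAL1 share from 5.06% to 70.0%.

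Clock genes were among those with the strongest BMAL1 values. Of 25 genes listed for the core clock and its output regulators, 4 (16%, 6.40 to 34.7) had one of the 272 regions within 10000 bp of a coding TSS, where 1.36% of all 21842 protein-coding genes did. The gene lists were compiled with earlier results of these data known, and their shares are descriptions. *Nr1d1*, which encodes REV-ERBα itself, was nearest to 3 regions, all with midpoints in introns of coding genes. The intron label did not ask which gene the intron belongs to. The one 1204 bp downstream of the TSS, whose E-box window is printed above, had REV-ERBα values of 6.24 and 5.39, BMAL1 values of 16 and 14.6, and RNAP2 values of 19 and 11.7. The one at 2279 bp had REV-ERBα values of 3.24 and 2.24. It was reached by the same BMAL1 peak of replicate 1 and by no BMAL1 peak of replicate 2. The third, at 7923 bp, had REV-ERBα values of 4.62 and 4.99 and a weak BMAL1 peak (1.58) in replicate 1 alone.

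*Dbp*, a clock-driven transcription factor, had 2 regions in its neighborhood. One lay 2569 bp downstream of its TSS, with REV-ERBα values of 4.21 and 4.67, BMAL1 values of 14.1 and 9.72 and RNAP2 values of 32.2 and 14.5. The other, 5748 bp from *Dbp* and nearest to the sphingosine kinase gene *Sphk2*, was the stronger REV-ERBα region, with 10.6 and 11.8, but had the lower BMAL1 values, 3.54 and 3.60. *Bhlhe40* (*Dec1*), a repressor of E-box genes, had a region 1117 bp upstream with REV-ERBα values of 7.09 and 7.31 and BMAL1 values of 11.0 and 3.36. Its second region, 7243 bp downstream, had 5.65 and 3.29 for REV-ERBα and a BMAL1 peak in replicate 1 only. *Per1*, a repressor in the clock's feedback loop, had a region in an intron at 1842 bp with REV-ERBα values of 5.41 and 7.69, no BMAL1 peak and an RNAP2 peak in replicate 2 only. REV-ERBα and BMAL1 strengths thus did not rank these clock gene regions in the same order. Over the 38 regions with BMAL1 overlap, however, the lower values of both tended to rise together, with a Spearman correlation of 0.46. The BMAL1 value used here was the lower one over the whole merged BMAL1 region, which can reach outside the REV-ERBα region. Regions under the same merged region repeat its value. The *Nr1d1* regions at 1204 bp and 2279 bp both entered with 14.63, although no BMAL1 peak of replicate 2 overlapped the second. For the lower RNAP2 value, taken in the same way, the correlation with REV-ERBα was 0.50 over the 100 regions with RNAP2 overlap. The part of region width in these correlations was not tested.

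The sarcomere and Z-disc list had the highest share, with 23 of 55 genes (41.8%, 29.7 to 55) near one of the 272 regions. RNAP2 overlap at one of these regions was found for 18 of the 23 genes and BMAL1 overlap for 11. Counted by region, 24 of 45 overlapped RNAP2 and 14 of 45 BMAL1, beside 36.8% and 14.0% of the 272, and 10 of the 45 had no BMAL1 or RNAP2 peak in any list. The single gene *Ttn* gave 16 of the 45, with RNAP2 overlap at 1, BMAL1 overlap at 3 and no such peak at 8. *Synpo2l* was counted through a region that it shares with *Myoz1*. The 45 regions concerned had a median lower REV-ERBα value of 3.12 (1.64 to 21.2), beside 2.54 for all 272. Among them were genes of the thick filament (*Myh4*, *Myl1*, *Mylpf*, *Mybpc2*, *Mybph*), the thin filament and its calcium switch (*Acta1*, *Tpm1*, *Tpm2*, *Tnnc2*, *Tnni2*, *Tnnt3*, *Neb*) and the Z-disc and other scaffolds (*Actn3*, *Tcap*, *Myoz1*, *Synpo2l*, *Flnc*, *Des*).

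The troponin genes of fast muscle, the calcium switch of contraction, each had regions of this class. *Tnnt3*, fast troponin T, had 4 regions, the strongest at 1151 bp and 5866 bp with REV-ERBα values of 6.77 and 7.99 and of 9.78 and 6.67. A single RNAP2 peak of replicate 1, with a −log10 p of 60.9, reached into 3 of the 4, so their RNAP2 values are not separate measurements. *Tnni2*, fast troponin I, had REV-ERBα values of 8.33 and 6.34, and BMAL1 peaks in both lists that did not overlap each other. *Tnnc2*, fast troponin C, had REV-ERBα values of 3.47 and 4.99, with BMAL1 at 6.6 and 4.53 and RNAP2 at 60.9 and 30.6. *Myl1*, a fast myosin light chain, had a region at 3108 bp with REV-ERBα values of 7.36 and 5.65 and BMAL1 values of 3.0 and 2.88. The region of *Mybph*, a myosin-binding protein, at 2785 bp had REV-ERBα values of 4.11 and 8.03 with no BMAL1 or RNAP2 peak in any list.

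*Ttn*, which encodes the giant spring protein titin, was the nearest gene of 16 regions, more than any other. The gene has 14 annotated coding starts, and 1 of the 16 regions lay within 10000 bp of the start of the gene record; the farthest was 148008 bp into the gene. That first region, 1954 bp from a coding start, had REV-ERBα values of 6.45 and 6.34 and RNAP2 values of 10.5 and 11.0. Among all 16, the lower REV-ERBα value had a median of 2.64 (1.66 to 6.34), 11 were in introns and 5 in coding exons, 1 overlapped an RNAP2 region of both replicates and 8 had no BMAL1 or RNAP2 peak in any list. The RNAP2 share of the *Ttn* regions was 6.25% (1.11 to 28.3), beside 7.53% for distal regions. *Tnnt3*, *Adssl1*, *Gm21149*, *Nfic*, *Nr1d1* and *Speer4e* were the other genes nearest to 3 or more regions, and 217 of the 234 nearest genes had a single one.

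Of 45 genes for glycolysis and glycogen, 12 (26.7%, 16 to 41.0) had a region, 9 of them with RNAP2 and 4 with BMAL1 overlap. The 12 regions had a median lower REV-ERBα value of 3.91. *Slc2a4*, the insulin-dependent glucose transporter GLUT4, had REV-ERBα values of 6.08 and 5.94 at a region that was nearest to *Ybx2*. The region 4036 bp from *Aldoa*, aldolase, is the one named above by its nearest gene, *Ppp4c*. It had 5.2 and 6.94 with RNAP2 at 47.5 and 17.1 and BMAL1 at 2.01 and 1.87. *Pgam2*, muscle phosphoglycerate mutase, had 9.0 and 4.21, and *Pfkm*, muscle phosphofructokinase, 5.17 and 1.81. *Pygm*, which breaks down glycogen, had 4.02 and 3.60 at a region nearest to *Rasgrp2*, with RNAP2 peaks in both lists (2.34 and 2.60) that did not overlap each other. *Pfkfb3*, *Gys1*, *Ak1* and *Ampd1* each had a region with a lower REV-ERBα value of at most 2.85, and that of *Gys1* was nearest to *Ftl1*.

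**Figure D5:**
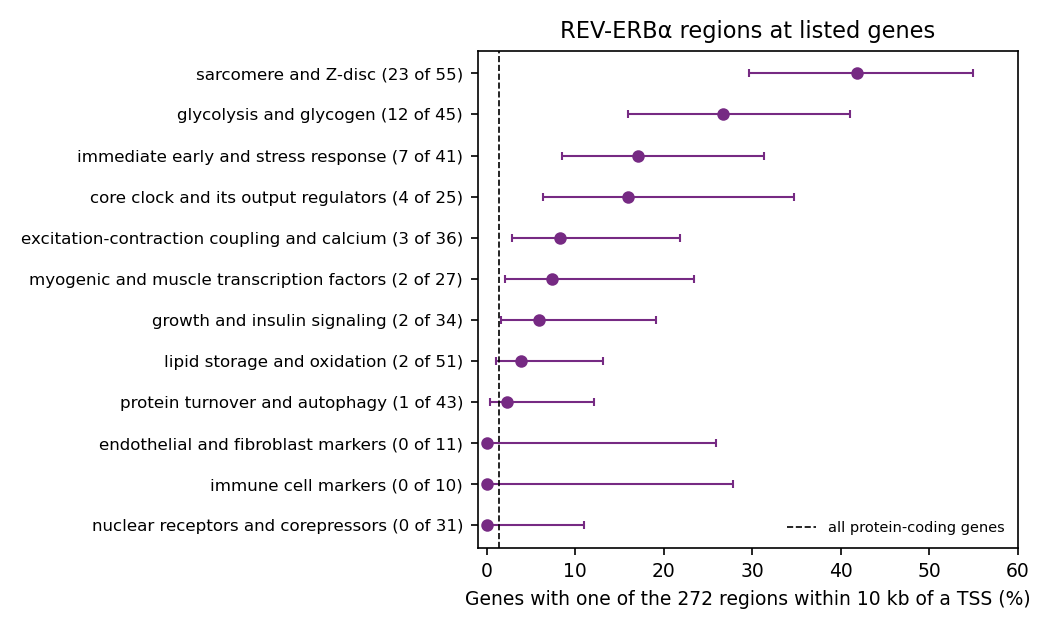
Percentage of the genes of each list with one of the 272 regions within 10 kb of a coding TSS (points), with 95% Wilson intervals (bars) and the number of genes beside each name. The dashed line is the share over all protein-coding genes, 1.36%, and the sarcomere (41.8%) and glycolysis (26.7%) lists lie farthest from it.

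Fewer genes of the other metabolic and regulatory lists were represented. Of 36 genes of excitation-contraction coupling 3 had a region, *Atp2a1*, *Pvalb* and *Itpr1* (2.24 and 1.65). Of 51 genes of lipid storage and oxidation 2 did. *Plin4*, a lipid droplet coat protein, had a region 5821 bp into the gene with REV-ERBα values of 10.6 and 5.11, and *Acsl6*, an acyl-CoA synthetase, had 3.24 and 3.36. Of 43 genes of protein turnover and autophagy only *Trp53* had a region, and of 34 genes of growth and insulin signaling *Igfbp5* (3.02 and 2.64) and *Vegfa* (2.38 and 3.04) did. A list of 31 nuclear receptors and corepressors, without *Nr1d1*, which was listed with the clock, had 0 genes with a region (0 to 11.0%). That interval includes the 1.36% of all protein-coding genes. The myogenic list of 27 genes had 2, *Mef2d* and *Klf9*. *Mef2d*, a partner of the myogenic factors, had regions at 7860 bp (5.41 and 3.75, no BMAL1 or RNAP2 peak) and 3596 bp upstream (2.65 and 2.91, RNAP2 at 8.09 and 11.4).

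Immediate early and stress response genes had a region at 7 of 41 (17.1%, 8.53 to 31.3). Besides *Junb* and *Per1* these were *Fos* (2.72 and 1.94), *Atf4* (5.49 and 3.61), *Zfp36* (2.53 and 2.53), *Sgk1* (3.02 and 4.35) and *Fkbp5* (1.75 and 2.37). RNAP2 overlap in both replicates was found at *Fos*, *Atf4*, *Zfp36* and *Sgk1*, and BMAL1 overlap at *Sgk1* alone. Markers of immune cells (0 of 10 genes) and of endothelial cells and fibroblasts (0 of 11) had no region of this class, and with so few genes a share of up to 27.8% and 25.9% lies within the interval.

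Sequence motifs were searched as exact letters on both strands of the 201 bp summit windows and of windows centered 2000 bp to each side. CACGTG, the E-box, occurred at 7 of the 272 summits (2.57%, 1.25 to 5.22) and in 2.39% of the flanking windows, beside 3.40% of all REV-ERBα summits and 7.34% of the promoter summits. Of the 38 regions with BMAL1 overlap 2 had one (5.26%, 1.46 to 17.3), both at *Nr1d1* and under the same BMAL1 peak of replicate 1. The *Nr1d1* window at 1204 bp also holds a D-box, TTATGTAA, the element of the DBP family, 2 bp from its summit. The nuclear receptor core AGGTCA was found at 39 summits (14.3%, 10.7 to 19) and in 12.9% of flanks, beside 13.1% of all REV-ERBα summits. The full RORE was found at 0 of the 272 summits, in 0.919% of flanks and at 0.158% of all REV-ERBα summits, and the DR2 at 0 of all 1263, which says only that these letters were absent from the windows. A DR1 was found at 1 of the 272, near *Zfp36*, and at no other REV-ERBα summit.

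The myogenic E-box CAGCTG, which MyoD and its relatives bind, was present at 38 summits (14.0%, 10.4 to 18.6) and in 9.74% of their flanks, beside 12.7% of all REV-ERBα summits. The M-CAT motif CATTCC of TEAD factors was present at 10.3% of the summits and 9.38% of flanks (10.8% of all REV-ERBα summits), and the AP-1 motif TGANTCA at 5.88% of both (5.46% of all). The GC box GGGCGG was at 31 summits (11.4%, 8.15 to 15.7), in 5.70% of flanks and at 16.6% of all REV-ERBα summits, with 45.6% of promoter summits. A MEF2 site was found at 9 summits (3.31%), in 3.49% of flanks and at 4.28% of all REV-ERBα summits, and a CArG box, the element of SRF, at 2 (0.735%), beside 1.19% of all. For each of these motifs other than the GC box, the share of the flanks lay inside or just under the interval of the summits.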

How the data were processed

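The sources were 6 lists of ChIP-seq peaks, 1 per sample. The authors aligned reads to mm10 with BWA, discarded duplicate and ambiguously placed reads, reduced samples of 1 factor to similar depth and ran Macs2 2.1.1 (version from the submitters' processing notes) on each sample against input, with a p-value limit of 0.05. The deposited −log10 p, −log10 q and fold enrichment (a ratio of signal over input at the summit) were used as the authors' Macs2 run gave them, and the deposited integer score, a rescaled −log10 p, was not. Peaks were merged, assigned to GENCODE M21 coding TSSs by region midpoint and read against all lists in Python 3.11.15, with pysam 0.24.0 for sequence from the RefSeq copy of mm10. For each list the strongest peak overlapping a region was taken, so a wide peak can serve several regions. A BMAL1 or RNAP2 region was a merged region with a peak in both replicates. For the correlations, and for naming regions by BMAL1 or RNAP2, its value was the lower of the replicates over the whole merged region. The code was tested on simulated peaks and motifs.

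Named genes were the nearest genes of the 20 strongest regions, listed genes with a region, the 15 regions of highest BMAL1 and the 10 of highest RNAP2 value, and genes nearest to 3 or more regions, of which the main ones are described. The regions and gene lists were chosen with earlier results of these data known. Individual regions on chromosome 18 are not reported here.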

Additional observations from a re-analysis of the deposited data

How the results depend on the processing

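No paired analysis was possible because the result comes from no test: each value is a count or share over regions, and the replicates of different factors share only a number. Of 115 recomputed values, 74 stayed within the interval of the reported share, or within 1.5 times the reported count. The cause of the other changes was not tested, except that stricter or narrower rules leave fewer regions by construction. Only this distance class was recomputed, so no share over the other REV-ERBα regions stands beside these values.

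With REV-ERBα peaks of −log10 p of at least 3, 107 regions and 96 nearest genes were left, with RNAP2 regions at 56.1%, an RNAP2 peak in at least 1 list at 70.1% and BMAL1 regions at 24.3%. With −log10 q of at least 1.3 in each list, 33 regions at 33 genes were left, with 63.6%, 78.8% and 42.4%, and 30.3% lay upstream. Without regions over 3000 bp, BMAL1 regions were at 9.52%. With BMAL1 and RNAP2 peaks of −log10 p of at least 3, RNAP2 regions were at 31.2%, an RNAP2 peak at 45.2% and BMAL1 regions at 5.15%. With 1 start per gene, RNAP2 regions were at 45.6%, an RNAP2 peak at 60.5%, and 34.6% lay upstream. With an upper distance of 5000 bp, 150 regions were left and RNAP2 regions were at 42.7%. In windows of 50 bp to each side, CACGTG was at 0.735%, CAGCTG at 6.25% and AGGTCA at 6.99%; in windows of 200 bp, CAGCTG was at 26.5% and AGGTCA at 29%.

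Leaving out a REV-ERBα replicate, and so keeping every peak of the other list, gave 4565 to 4707 regions at 3814 to 3880 genes. RNAP2 regions of both replicates then overlapped 3.90% to 4.44%, an RNAP2 peak of at least 1 list 14.9% to 15.5%, BMAL1 regions 1.18% to 1.42%, and 56.4% to 59.3% lay in introns. Upstream shares were 45.8% to 45.9%, CACGTG shares 2.43% to 2.87%, CAGCTG shares 10.5% to 10.8% and AGGTCA shares 12.6% to 13.1%. With 1 RNAP2 list, RNAP2 overlap was 44.9% to 46.0%, and with 1 BMAL1 list BMAL1 overlap was 27.2% either way. The lists hold no reads, so depth at single regions limits every value in a way that is not known.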

Other observations

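Some regions lay at starts of long non-coding RNAs rather than of coding genes. The summit was within 1000 bp of such a start at 16 of the 272 regions (5.88%, 3.65 to 9.34). This was close to the 5.70% of all REV-ERBα regions, with 11.9% of promoter and 2.56% of distal ones. The summit of the *Klf9* region, which had REV-ERBα values of 5.45 and 6.73, was 52 bp downstream of the start of 2410080I02Rik. The region assigned to *Kmt2e* (lower value 8.23) was 281 bp downstream of that of 5031425E22Rik, and the one assigned to *Tlcd2* (5.53 and 7.98) was 749 bp downstream of that of Mir22hg, the host transcript of a microRNA. RNAP2 regions of both replicates overlapped all 3.

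Repeated sequence was present under part of the regions. The summit windows of 23 of the 272 shared a run of at least 30 bp with the window of another REV-ERBα region. This count was not made for the other REV-ERBα regions. Over 50% of the summit window was masked as repeat at 12.5% of the 272, beside 15.4% of all REV-ERBα regions. That share was 0% in promoter and 24.2% in distal regions. On chromosome 5, 12 regions were nearest to predicted genes or *Speer4e*, a gene of a multi-copy family, with lower REV-ERBα values from 1.94 to 14.9. Of these 12, 9 had a BMAL1 peak in replicate 1, 2 in replicate 2 and 0 an RNAP2 region of both replicates. The strongest, near *Gm17019*, had 14.9 and 15.4 for REV-ERBα and 15.9 for BMAL1 in replicate 1. Counts at such copies are uncertain.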
